A study of Mus musculus with 9 samples.

Results

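A set of 9 genes was followed as markers of endothelial cells, the cells that line blood and lymph vessels, in RNA sequencing libraries of cells sorted from mouse skin. They were chosen by symbol, with no measured value in the rule, though with earlier results of these data known. They are 9 of the 49671 genes counted. All 9 passed the filter on low counts, which kept 31961 genes in all. The set holds the junction proteins Pecam1 and Cdh5, the receptor kinases Kdr, Flt1, Tie1 and Tek, the co-receptor Eng, the surface sialomucin Emcn and the secreted protein Egfl7.

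The sorted cells carried the receptor KIT and lacked CD45, a surface protein of blood cells, and were taken as cells of the melanocyte lineage. All mice were female wild-type C57BL/6 animals. There were 3 libraries of melanoblasts, the lineage's precursor cells, from newborn dermis (postnatal day 0.5). Quiescent melanocyte stem cells (McSC) were taken from adults of 8 to 10 weeks in 4 libraries and from aged mice of 24 months in 2 libraries, in both cases from skin in telogen, when hair follicles rest. Newborn and adult mice came from C57BL/6J mated in house, and the aged mice arrived at 21 months from an aging colony, so that colony and age cannot be told apart. Each library pooled several animals, and p-values measure the spread between pools.

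Endothelial cells hold on to each other through adhesion proteins at their junctions, of which VE-cadherin, the product of Cdh5, is the adhesion molecule most specific to them. Vascular endothelial growth factors signal through KDR and are captured by FLT1, while the angiopoietins signal through TEK, with TIE1 as its partner. Several of these proteins are also made outside the endothelium, PECAM1 by platelets and leukocytes and endoglin by stromal cells among others. Dermis is rich in vessels, and KIT, the receptor used for the sort, belongs to the same large family of receptor kinases as KDR and FLT1.

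The libraries held 23688288 to 33710117 counts in melanoblasts, 19956424 to 21572026 in adult McSC and 12594770 to 16362560 in aged McSC. Levels are given as CPM (counts per megacount of the library) with factors from the trimmed mean of M-values (TMM). Kit, the gene of the sorted receptor, had 2870, 3081 and 2248 CPM in melanoblasts, 599, 1610, 711 and 1021 CPM in adult McSC and 848 and 732 CPM in aged McSC. Ptprc, the gene of CD45, ranged from 0.678 to 3.17 CPM in melanoblasts, from 4.15 to 7.44 CPM in adult McSC and from 6.31 to 7.47 CPM in aged McSC. The 10 melanocyte lineage genes summed to 14482 to 26271 CPM, 4480 to 10930 CPM and 7487 to 8998 CPM in melanoblasts, adult and aged McSC. The 9 endothelial genes summed to 115.8 ± 26.3 CPM in melanoblasts (SD, n = 3), 162.7 ± 76.9 CPM in adult McSC (SD, n = 4) and 81.4 ± 8.05 CPM in aged McSC (SD, n = 2). The order of aged McSC and melanoblasts depends on the scaling: the sums were 117.7 CPM in aged McSC and 73.7 CPM in melanoblasts without TMM factors, and 159.7 and 122.2 CPM with mitochondrial genes left out of library totals. Adult McSC had the highest mean under each. In a bulk library, fewer cells of a type and less RNA per cell cannot be told apart.

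Adult McSC replicate 3 stood apart on these genes. It had the highest level of the 4 adult libraries for 8 of the 9 genes, or 88.9%, where it was the highest for 18.4% of all genes tested. The same 8 genes were also higher there than in any of the other 8 libraries. The sum over the 9 genes was 275.6 CPM in adult replicate 3, against 103.7 to 141.6 CPM in the other 3 adult libraries. The fold changes of the 9 genes and the list counts that use the adult group are therefore given with and without this library.

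**Figure D1:**
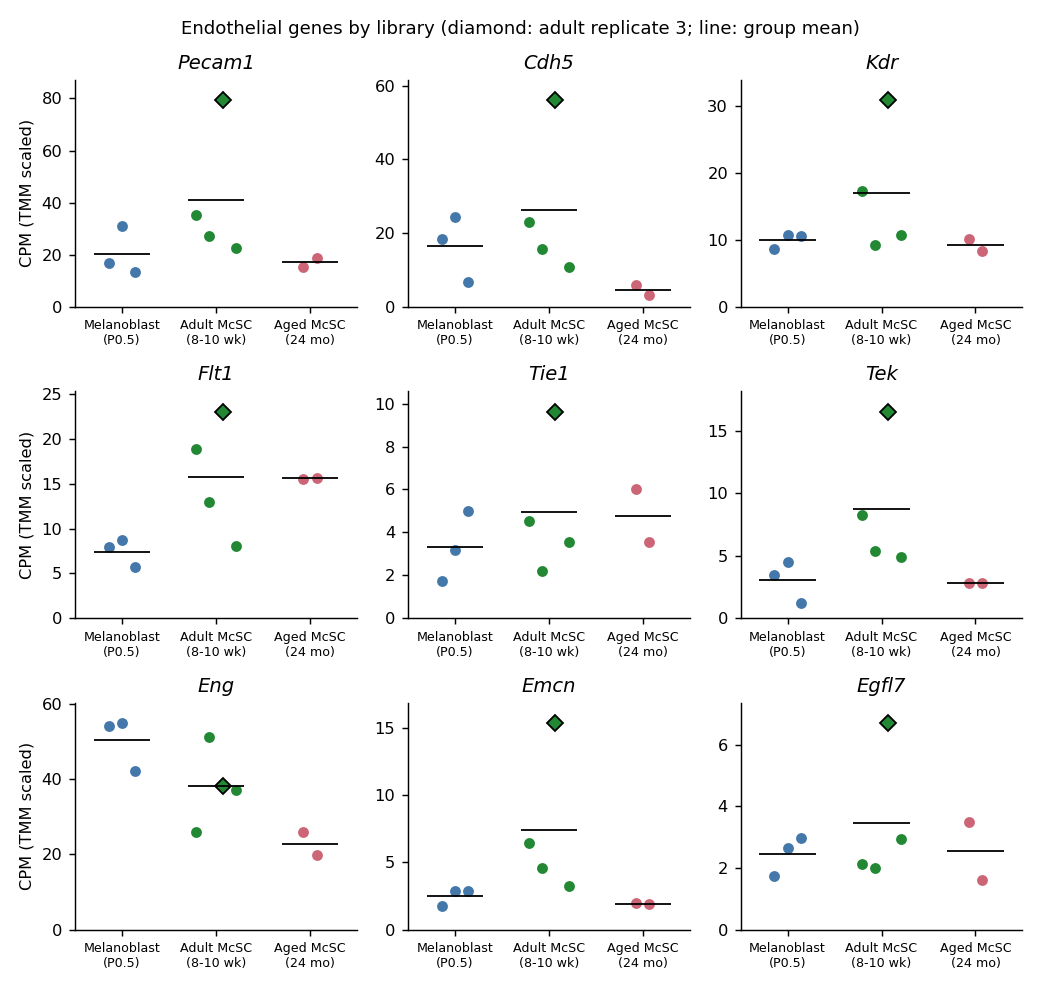
Level of each endothelial gene in every library, in TMM-scaled CPM, for melanoblasts (n = 3), adult McSC (n = 4) and aged McSC (n = 2). Points are libraries, lines are group means, and the diamond is adult replicate 3, which is the highest point for each gene except Eng.

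Per kilobase of exon, the junction genes were the most abundant of the set after Eng in melanoblasts and adult McSC. Pecam1 (ENSMUSG00000020717, chromosome 11, 106654217 to 106750628, minus strand of mm10) encodes a homophilic adhesion protein of endothelial junctions. It had 35.3, 27.0, 79.3 and 22.4 CPM in adult McSC, against 16.6, 31.0 and 13.2 CPM in melanoblasts. The 2 groups overlapped, since melanoblast replicate 2 lay above 2 adult libraries. Pecam1 was called higher in adult McSC by edgeR's quasi-likelihood test with Benjamini-Hochberg adjustment over all genes tested. The log2 fold change was 1.01, with an SE of 0.373 (edgeR, adjusted p = 0.0431). Without adult replicate 3 the log2 fold change of Pecam1 was 0.48 (edgeR, adjusted p = 0.241). Its call was also lost without any of 5 other single libraries, namely melanoblast replicates 1 and 3, adult replicate 1 and both aged replicates (edgeR, adjusted p from 0.0606 to 0.176), with log2 fold changes of 0.78 to 1.18.

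Cdh5 (ENSMUSG00000031871, chromosome 8, 104101625 to 104144511, plus strand) had 23.0, 15.7, 56.0 and 10.7 CPM in adult McSC, against 18.4, 24.3 and 6.57 CPM in melanoblasts. Both groups spread widely and overlapped, and the difference did not pass (log2 fold change 0.68, SE 0.537, edgeR adjusted p = 0.344). Its log2 fold change was 0.0041 without adult replicate 3 (SE 0.383, edgeR adjusted p = 0.995). In aged McSC Cdh5 had 5.98 and 3.24 CPM, below every other library in TMM-scaled CPM, and Pecam1 had 15.2 and 18.8 CPM. The order of Cdh5 does not hold without TMM factors. Aged replicate 1 had 148 Cdh5 counts of 16362560 in total, and melanoblast replicate 3 had 131 of 23688288.

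Of the vascular endothelial growth factor receptors, Kdr (ENSMUSG00000062960, chromosome 5, 75932827 to 75978458, minus strand) encodes the main signalling receptor. It had 17.3, 9.24, 30.9 and 10.7 CPM in adult McSC, against 8.59, 10.7 and 10.6 CPM in melanoblasts. Adult replicates 1 and 3 were above the melanoblasts, whereas replicates 2 and 4 were within or close to their range. Kdr did not pass (log2 fold change 0.77, SE 0.327, edgeR adjusted p = 0.0702) and had a log2 fold change of 0.32 without adult replicate 3. It lies 276.1 kb from Kit on the same chromosome, from end to end of the annotated genes, and the levels of the 2 genes followed different orders across the libraries.

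Flt1 (ENSMUSG00000029648, chromosome 5, 147561604 to 147726011, minus strand) encodes a receptor that binds the same growth factors with high affinity and signals weakly. It had 18.9, 13.0, 23.0 and 8.08 CPM in adult McSC, against 7.90, 8.70 and 5.67 CPM in melanoblasts. Adult replicate 4 fell inside the melanoblast range and the other 3 adult libraries lay above it. Flt1 was called higher in adult McSC, with a log2 fold change of 1.08 (SE 0.307, edgeR adjusted p = 0.00863). Without adult replicate 3 the log2 fold change was 0.85 and narrowly missed the threshold (edgeR, adjusted p = 0.0529). Aged McSC had 15.5 and 15.7 CPM of Flt1, which is within the adult range and above all 3 melanoblast libraries.

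The angiopoietin receptor Tek (ENSMUSG00000006386, chromosome 4, 94739289 to 94874976, plus strand) had 8.22, 5.35, 16.5 and 4.87 CPM in adult McSC, against 3.49, 4.53 and 1.20 CPM in melanoblasts. All 4 adult libraries lay above all 3 melanoblast libraries, with adult replicate 4 and melanoblast replicate 2 close together. The log2 fold change was 1.51 (SE 0.450, edgeR adjusted p = 0.0123), and 1.00 without adult replicate 3 (edgeR, adjusted p = 0.108). Aged McSC had 2.83 and 2.84 CPM of Tek, below all adult libraries. Its partner Tie1 (ENSMUSG00000033191, chromosome 4, 118471191 to 118490061, minus strand) had 4.52, 2.18, 9.62 and 3.54 CPM in adult McSC, against 1.74, 3.18 and 5.02 CPM in melanoblasts. These groups overlapped and Tie1 did not pass (log2 fold change 0.58, edgeR adjusted p = 0.337), with a log2 fold change of 0.041 without adult replicate 3 (edgeR, adjusted p = 0.956). In aged McSC Tie1 had 6.02 and 3.53 CPM, inside the adult range.

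Eng (ENSMUSG00000026814, chromosome 2, 32646595 to 32682669, plus strand) encodes endoglin, a co-receptor for ligands of the transforming growth factor beta family. It differed from the rest of the set in level and in order. Eng had 25.9, 51.1, 38.3 and 37.2 CPM in adult McSC, against 54.1, 54.8 and 42.1 CPM in melanoblasts, and 25.9 and 19.7 CPM in aged McSC. Its highest adult library was replicate 2, and adult replicate 3 was at 1.01 times the mean of the other adult libraries. The adult and melanoblast ranges overlapped, and the log2 fold change of -0.40 did not pass (SE 0.234, edgeR adjusted p = 0.186). It was -0.40 without adult replicate 3 as well. Eng made up 43.5% of the summed level of the 9 genes in melanoblasts, 23.4% in adult McSC and 28.0% in aged McSC. Exons of Eng overlap those of Fpgs on the opposite strand, which had 1516 counts over all libraries, and the strand setting of the counting is not given in the sources used here.

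Emcn (ENSMUSG00000054690, chromosome 3, 137341067 to 137432185, plus strand) encodes endomucin, a sialomucin of venous and capillary endothelium. It had 6.47, 4.58, 15.3 and 3.25 CPM in adult McSC, against 1.74, 2.87 and 2.91 CPM in melanoblasts. All 4 adult libraries lay above the melanoblasts, adult replicate 4 by a small margin. The log2 fold change of 1.56 was the largest of the 9 in this comparison (SE 0.457, edgeR adjusted p = 0.0109). It was 0.92 without adult replicate 3 (edgeR, adjusted p = 0.142) and the call was also lost without melanoblast replicate 1 (edgeR, adjusted p = 0.0564). Aged McSC had 1.98 and 1.91 CPM, within the melanoblast range and below all adult libraries in TMM-scaled CPM. The place within the melanoblast range does not hold without TMM factors. Aged replicate 2 had 33 Emcn counts of 12594770 in total, and melanoblast replicate 3 had 58 of 23688288.

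Egfl7 (ENSMUSG00000026921, chromosome 2, 26580014 to 26593120, plus strand) encodes a secreted protein of the vessel wall matrix. It had 2.14, 2.01, 6.69 and 2.96 CPM in adult McSC, against 1.74, 2.66 and 2.96 CPM in melanoblasts, and 3.48 and 1.62 CPM in aged McSC. Apart from adult replicate 3 the 3 groups lay in one range. Its log2 fold change of 0.49 between adult McSC and melanoblasts did not pass (SE 0.481, edgeR adjusted p = 0.443), and it was -0.051 without adult replicate 3. Exons of Egfl7 overlap those of Agpat2 on the opposite strand, which had 1185 counts over all libraries.

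In total, 4 of the 9 genes (Pecam1, Flt1, Tek and Emcn) were called higher in adult McSC than in melanoblasts and 0 were called lower. Over all genes tested 33.4% were called, 15.1% higher and 18.3% lower. Adult and melanoblast libraries did not overlap for 2 of the 9 genes, Tek and Emcn, both higher in adult McSC, against 19.5% of all genes tested that did so in this direction and 19.8% in the other. The median log2 fold change was 0.77 over the 9 genes and 0.39 over all genes tested. Without adult replicate 3, 0 of the 9 were called by edgeR (Flt1 and Tek, 2 of 9, at an unadjusted p under 0.05). In that fit 3563 of 31624 genes tested were called higher and 4896 lower. The same totals stand beside the list counts without that library given below for this comparison. Without melanoblast replicate 1 the 2 called were Flt1 and Tek, where 4063 genes were called higher and 4617 lower over the whole table. With scaling factors from abundant genes, the median of all genes tested moved to 1.16 and 10604 genes were called higher and 1905 lower, in place of 4836 and 5840. Under those factors 6 of the 9 genes were called higher and Eng had a log2 fold change of 0.37, in place of -0.40, so the direction of Eng depends on the scaling.

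**Figure D2:**
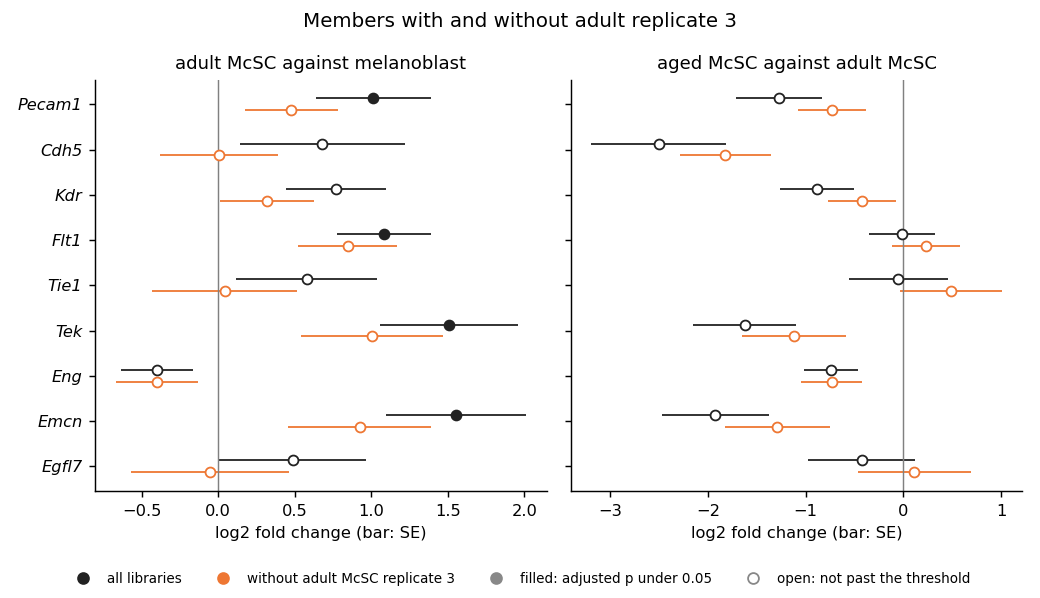
Log2 fold changes of the 9 endothelial genes (x axis; bars are SE) for adult McSC against melanoblasts on the left and aged McSC against adult McSC on the right, with all libraries in black and without adult replicate 3 in orange. Filled points pass an adjusted p of 0.05: 4 genes pass on the left with all libraries, and none without adult replicate 3.

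Promoter windows were compared for 4 genes on which the comparisons turn, Tek and Emcn, whose adult libraries all lay above the melanoblasts, Flt1, which was called in both McSC groups against melanoblasts, and Eng, which followed another order. Each window runs from 250 bases before to 50 bases after a start in RefSeq (build GRCm38.p6), 5′ to 3′ on the strand of the gene. Capitals mark the 6-letter words CAGGAA and CCGGAA or their reverse complements TTCCTG and TTCCGG, forms of the core bound by ETS factors, a family that includes the endothelial regulators ERG and FLI1. The windows lie at chr4:94739039-94739338 (plus strand) for Tek, chr3:137340828-137341127 (plus strand) for Emcn, chr5:147725962-147726261 (minus strand) for Flt1 and chr2:32646345-32646644 (plus strand) for Eng.
Tek: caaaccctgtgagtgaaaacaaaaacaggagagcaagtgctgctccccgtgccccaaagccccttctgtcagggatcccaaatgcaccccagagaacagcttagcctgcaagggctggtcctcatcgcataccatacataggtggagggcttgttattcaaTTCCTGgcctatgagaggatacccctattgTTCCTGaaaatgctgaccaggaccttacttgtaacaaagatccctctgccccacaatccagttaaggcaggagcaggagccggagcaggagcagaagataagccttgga
Emcn: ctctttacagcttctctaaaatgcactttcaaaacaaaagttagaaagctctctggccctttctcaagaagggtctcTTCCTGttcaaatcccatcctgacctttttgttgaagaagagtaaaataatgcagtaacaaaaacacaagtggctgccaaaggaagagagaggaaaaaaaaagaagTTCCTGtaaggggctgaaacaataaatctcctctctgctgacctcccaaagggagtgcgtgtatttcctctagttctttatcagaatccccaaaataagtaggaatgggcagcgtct
Flt1: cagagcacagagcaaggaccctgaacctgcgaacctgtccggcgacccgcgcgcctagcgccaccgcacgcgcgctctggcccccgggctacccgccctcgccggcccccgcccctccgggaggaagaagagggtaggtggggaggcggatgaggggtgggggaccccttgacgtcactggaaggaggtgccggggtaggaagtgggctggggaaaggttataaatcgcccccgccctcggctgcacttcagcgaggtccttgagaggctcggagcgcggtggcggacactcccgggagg
Eng: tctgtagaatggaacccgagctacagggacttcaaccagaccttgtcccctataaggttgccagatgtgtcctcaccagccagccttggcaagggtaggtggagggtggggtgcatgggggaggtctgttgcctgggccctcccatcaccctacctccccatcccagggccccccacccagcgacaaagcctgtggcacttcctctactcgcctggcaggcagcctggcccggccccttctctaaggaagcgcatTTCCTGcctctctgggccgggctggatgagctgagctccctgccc
The Tek and Emcn windows hold 2 matches each to the 6-letter words, the Eng window 1 and the Flt1 window 0. GGAA, the part that these words share, or its reverse complement TTCC was found 2 times in the Tek window, 6 in Emcn, 4 in Flt1 and 4 in Eng. It was found in 96.0% of all windows. RefSeq windows were matched for 7 of the 9 genes, all except Pecam1 and Cdh5, and 6 of the 7 had at least 1 match to a 6-letter word in a window. Egfl7 has several windows, which favours a match. Of 32851 windows of the same length in the table, 41.4% held either word, 30.6% the first and 14.9% the second. Both strands were searched, and the 2 words were counted separately. A match describes letters in the window only.

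Compared per kilobase of exon, so that genes of different length can be set beside each other, Eng had the highest level in each group. In melanoblasts Eng averaged 12.4 ± 1.76 CPM per kb (SD, n = 3), Cdh5 3.91 ± 2.15 and Pecam1 3.26 ± 1.51. The last 2 did not differ beyond their spread, and Kdr followed at 1.10 ± 0.133 CPM per kb, above the means of the remaining 5 genes at 0.463 to 0.685 CPM per kb. The libraries of Kdr overlapped those of Tie1 and of Tek. In adult McSC Eng averaged 9.41 ± 2.54 CPM per kb (SD, n = 4), Pecam1 6.58 ± 4.19 and Cdh5 6.27 ± 4.86, which overlapped, and the other 6 lay at 0.963 to 1.89 CPM per kb without separating from their neighbours. In aged McSC Eng averaged 5.64 ± 1.08 CPM per kb (SD, n = 2) and Pecam1 2.73 ± 0.398. Flt1, Cdh5, Kdr and Tie1 followed at 0.972 to 1.16 CPM per kb. Cdh5 and Tie1 overlapped the others in range, whereas both Flt1 libraries lay above both Kdr libraries. Egfl7 at 0.712 ± 0.367 CPM per kb overlapped Cdh5 and Tie1 and was not separated from Tek at 0.601 ± 0.000869, and both Emcn libraries lay below all libraries of the other 8 genes.

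Olfactory and vomeronasal receptor genes, which have their known roles in sensory neurons, served as a measure of background in these libraries. Their 1431 genes took 252.8 ± 96.5 parts per megacount (ppm) of the library in melanoblasts (SD, n = 3), 1088 ± 274.2 ppm in adult McSC (SD, n = 4) and 1521 ± 74.8 ppm in aged McSC (SD, n = 2). The level per kilobase was set against the 95th percentile of all 1431 receptor genes in the same library, of which 971 passed the filter on low counts. In melanoblasts 7, 9 and 8 of the 9 endothelial genes lay above it, in adult McSC 8, 8, 9 and 7, and in aged McSC 7 and 4. Pecam1, Kdr and Eng were above it in all 9 libraries. Emcn was above it in 5 libraries, and in aged McSC neither Emcn nor Tek was. In aged replicate 2 Cdh5, Tie1, Tek, Emcn and Egfl7 were at or below this background, so their low values there cannot be read as expression. Flt1 was not above it in adult replicate 4. Group means were also divided by the 95th percentile of the group means of receptor genes. For the 4 genes called higher in adult McSC, the ratios in melanoblasts and adult McSC were 11.8 and 11.4 for Pecam1, 1.99 and 2.03 for Flt1, 2.36 and 3.22 for Tek and 1.68 and 2.38 for Emcn. In aged McSC the ratio of Flt1 was 1.58. The part of the background in the fold changes was not tested apart from the group, since the receptor share differs between the groups.

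**Figure D3:**
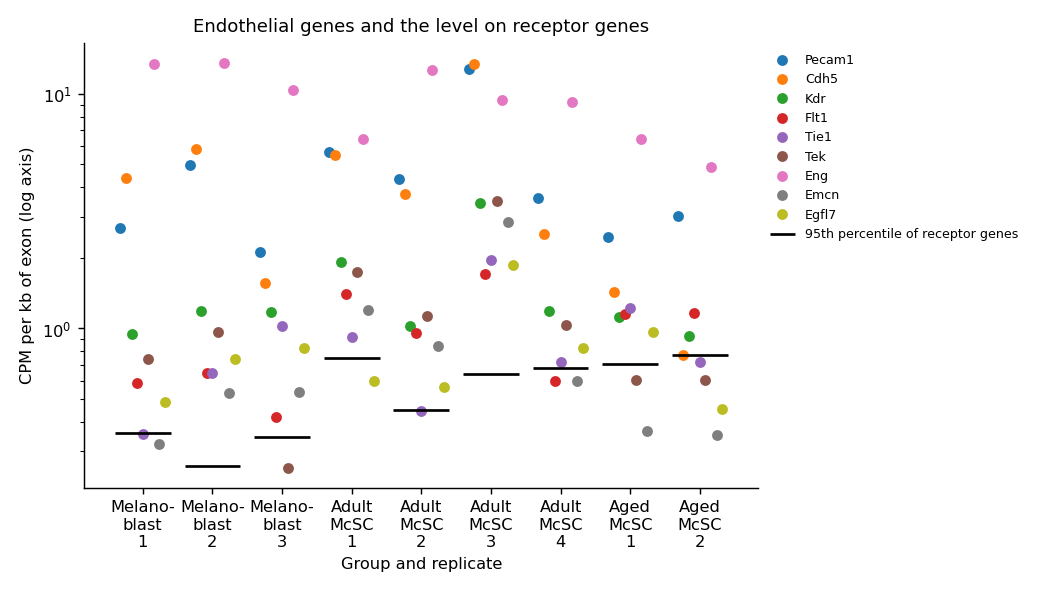
Level of each endothelial gene in CPM per kilobase of exon (log axis) in every library, with the 95th percentile of receptor genes in that library as a black bar. Eng, Pecam1 and Kdr lie above the bar in all 9 libraries, whereas 5 of the 9 genes do not in aged replicate 2.

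Aged McSC were next compared with adult McSC, the comparison that addresses aging of the stem cell. No endothelial gene passed in aged McSC against adult McSC by edgeR (0 of 9), where 0.303% of all genes tested did, 0.0532% higher and 0.25% lower. At an unadjusted p under 0.05 there were 6 of the 9 (Pecam1, Cdh5, Kdr, Tek, Eng and Emcn), each with a lower mean in aged McSC. Over all genes tested there were 3275 of 31961, which is also the background for later unadjusted counts in this comparison. The count of 6 became 2 (Tek and Emcn) without aged replicate 2, 4 without aged replicate 1, 5 without adult replicate 3 and 3 with factors from abundant genes. DESeq2 called 1 of the 9 (Emcn, adjusted p = 0.0151), limma voom called 1 (Cdh5, adjusted p = 0.0278), and edgeR without a filter called 4. The median log2 fold change was -0.88 over the 9 genes and 0.078 over all genes tested. Some markers of 2 other cell types were called lower in aged McSC by edgeR, where none of the 9 genes were. Of 11 Schwann cell genes 4 were called lower (median -0.98) and of 10 fibroblast genes 3 (Col3a1, Col1a2 and Col1a1, median -0.77). Without adult replicate 3 these counts were 2 and 3, where 43 of 31624 genes tested were called lower. Schwann cell markers summed to 347.5 and 410.6 CPM in aged McSC, against 821.0 to 997.0 CPM in adult McSC. Fibroblast markers summed to 137.9 and 255.9 CPM in aged McSC, against 498.7 to 979.1 CPM in adult McSC. Their part in the endothelial values was not tested.

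The lowest fold change in aged McSC was that of Cdh5, which averaged 4.61 ± 1.94 CPM in aged McSC (SD, n = 2) and 26.3 ± 20.4 CPM in adult McSC (SD, n = 4). The log2 fold change was -2.50 (SE 0.692, by edgeR adjusted p = 0.250). Emcn averaged 1.95 ± 0.0503 CPM in aged McSC and 7.40 ± 5.44 CPM in adult McSC (log2 fold change -1.92, edgeR adjusted p = 0.200). Tek averaged 2.83 ± 0.00409 CPM in aged McSC and 8.74 ± 5.39 CPM in adult McSC (log2 fold change -1.62, edgeR adjusted p = 0.289). Pecam1 had a log2 fold change of -1.27, Kdr of -0.88 and Eng of -0.74 (edgeR, adjusted p from 0.336 to 0.448). The aged libraries lay below all 4 adult libraries for Pecam1, Cdh5, Tek and Emcn, that is 4 of 9, against 12.1% of all genes tested that lay lower and 15.5% that lay higher. Flt1 (-0.013), Tie1 (-0.051) and Egfl7 (-0.43) had log2 fold changes within 1 SE of 0. Without adult replicate 3 the log2 fold changes of these 3 were 0.23, 0.49 and 0.11. Without that library the log2 fold changes of the other 6 were -1.82 for Cdh5, -1.29 for Emcn, -1.12 for Tek, -0.73 for Pecam1 and Eng and -0.42 for Kdr.

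Against melanoblasts, aged McSC had 2 of the 9 genes called, where 40.7% of all genes tested were, 20.4% higher and 20.3% lower. Flt1 averaged 15.6 ± 0.112 CPM in aged McSC (SD, n = 2) and 7.43 ± 1.57 CPM in melanoblasts (SD, n = 3), and was called higher (log2 fold change 1.07, SE 0.353, edgeR adjusted p = 0.0193). In TMM-scaled CPM, the aged libraries lay above all melanoblast libraries for 1 of the 9 genes, Flt1, against 40.4% of all genes tested, and below them for 2, Eng and Cdh5, against 25.7%. For Cdh5 and for Eng this order does not hold without TMM factors. Aged replicate 1 had 641 Eng counts of 16362560 in total, and melanoblast replicate 3 had 839 of 23688288. The Flt1 call was lost without aged replicate 1 (edgeR, adjusted p = 0.0645). Eng averaged 22.8 ± 4.37 CPM in aged McSC and 50.3 ± 7.14 CPM in melanoblasts, and was called lower (log2 fold change -1.14, SE 0.293, edgeR adjusted p = 0.00388). The Eng call was lost without aged replicate 2 (log2 fold change -0.83, edgeR adjusted p = 0.0982), and the log2 fold change was 0.025 with factors from abundant genes, which moved the median of all genes tested from 0.70 to 1.80. Cdh5, with a log2 fold change of -1.82, missed the threshold (edgeR, adjusted p = 0.0512), and it passed in 8 of 19 alternative settings. Across those 19 settings its log2 fold change ran from -2.29 to -0.014, and from -2.29 to -1.34 when 1 library was left out. The 3 comparisons share libraries, and their fold changes are not independent of each other.

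Other genes of endothelial cells were read from the same fit. Of 30 further endothelial genes, 11 were called higher in adult McSC than in melanoblasts and 2 lower, with a median log2 fold change of 1.06. Over all genes tested 15.1% were called higher and 18.3% lower, with a median of 0.39. The summed level of the 30 went the other way, to 452.3 ± 128.1 CPM in adult McSC (SD, n = 4) and 652.4 ± 101.8 CPM in melanoblasts (SD, n = 3). Ets1 alone averaged 191.6 CPM in adult McSC and 531.1 CPM in melanoblasts. Cd34, a sialomucin of capillary endothelium and of stem cells in skin, averaged 30.1 ± 11.9 CPM in adult McSC (SD, n = 4) and 4.68 ± 2.72 CPM in melanoblasts (SD, n = 3), and its log2 fold change was 2.69 (edgeR, adjusted p = 1.80e-05). Adgrl4, an adhesion receptor of endothelium, had a log2 fold change of 2.56 (edgeR, adjusted p = 0.000207). Aplnr, the apelin receptor, was lower in adult McSC (-2.54), as was Ets1 (-1.47), a transcription factor that many cell types use. Without adult replicate 3, 5 of the 30 were called higher and 2 lower, where 3563 of 31624 genes tested were higher and 4896 lower. Without melanoblast replicate 1, 9 of the 30 were called in all, where 8680 genes were over the whole table.

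A core of 12 genes with a narrower expression in endothelium was set apart from these 30 as defining markers. Erg (log2 fold change 2.05), Vwf (1.48), Plvap (1.73), Sox18 (1.76), Ecscr (1.19), Sox17 (1.51) and Robo4 (1.13) were called higher in adult McSC, 7 of 12, with 0 lower, where 15.1% of all genes tested were higher and 18.3% lower. Erg, Sox17 and Sox18 are transcription factors, Vwf encodes von Willebrand factor, and Plvap encodes the diaphragm protein of fenestrated capillaries. Myct1 (2.13), Cldn5 (0.79), Clec14a (0.65), Mmrn2 (0.45) and Icam2 (-0.46) did not pass. None of the 12 was at 0 in any library, though Cldn5, the gene of the tight junction protein claudin-5, had 0.249 to 1.82 CPM in melanoblasts and 0.470 to 3.51 CPM in adult McSC. The lowest Cldn5 values lay below the 95th percentile of receptor genes, which was 0.808 to 1.21 CPM in melanoblasts and 1.54 to 2.55 CPM in adult McSC. The 12 genes summed to 50.4 to 162.2 CPM in adult McSC, against 30.1 to 36.7 CPM in melanoblasts, and to 36.8 and 41.3 CPM in aged McSC. Without adult replicate 3, 2 of the 12 were called, and without melanoblast replicate 1 likewise 2. In aged McSC against adult McSC 0 of the 12 were called by edgeR, DESeq2 or limma voom (5 at an unadjusted p under 0.05 by edgeR), and of the 30 edgeR called Cd34, with a log2 fold change of -2.11 (adjusted p = 0.0380). DESeq2 called Cd34 and limma voom called Cd34 and Adgrf5, an adhesion receptor. With no filter edgeR called Erg, Vwf, Cd34 and Adgrf5, all lower in aged McSC. Cd34 did not pass by edgeR when any 1 of 6 libraries was left out, namely melanoblast replicate 1, adult replicates 2, 3 and 4 and both aged replicates, nor with the stricter filter, factors from abundant genes or the receptor share as a covariate.

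Against the same adult libraries, replicate 3 had the highest level for 27 of the 30 further endothelial genes and for 12 of the 12 defining markers. Its level was 2.81 times the mean of the other 3 adult libraries at the median of the 9 genes, 2.32 times for the 30 and 2.56 times for the 12, where all genes tested had a median of 0.95. The ratio was 3.41 for Cdh5, 3.21 for Emcn, 2.82 for Tie1 and Egfl7, 2.81 for Pecam1, 2.69 for Tek, 2.48 for Kdr and 1.73 for Flt1. Medians of other marker lists were 1.38 for arterial, 1.09 for venous and 1.07 for lymphatic endothelium, 0.97 for pericytes and smooth muscle, 1.03 for platelets and megakaryocytes and 1.04 for blood cells. They were 0.80 for mast cells, 1.01 for erythroid cells, 0.69 for fibroblasts, 0.97 for Schwann cells and 0.68 for the melanocyte lineage. Keratinocyte markers were the other list that was high in this library, with a median of 1.52 and 9 of 10 genes at their highest adult level there. They summed to 1018 to 2247 CPM in adult McSC, against 77.0 to 254.2 CPM in melanoblasts, and 10 of 10 were called higher in adult McSC with and without replicate 3. With all libraries, 15.1% of all genes tested were called higher in that comparison. The part of keratinocyte RNA in the endothelial values was not tested.

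**Figure D4:**
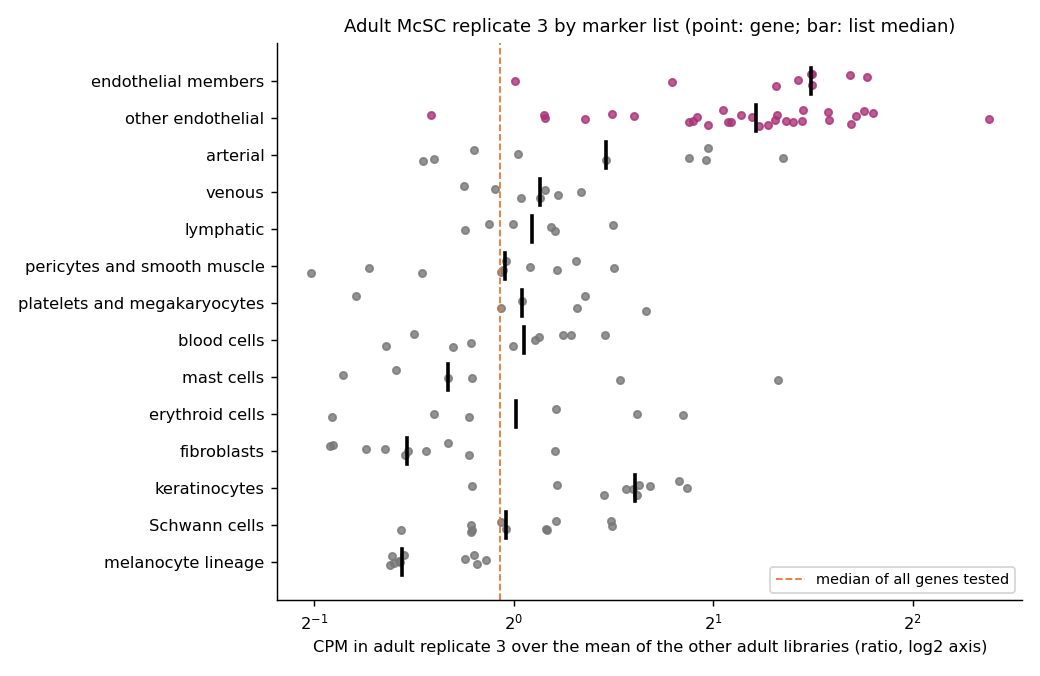
Ratio of the level in adult replicate 3 to the mean of the other 3 adult libraries (log2 axis) for the genes of each marker list, with the list median as a bar and the median of all genes tested as a dashed line. Genes at 0 in adult replicate 3 are counted in the median and not drawn; the endothelial lists have medians of 2.81 and 2.32, and the keratinocyte list of 1.52.

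Genes that act with the 9 were also counted. Of 19 ligands and receptor partners, 5 were called higher and 6 lower in adult McSC than in melanoblasts, or 3 and 6 without adult replicate 3, where over all genes tested 15.1% were higher and 18.3% lower. Vegfc, the ligand of the lymphatic growth factor receptor, averaged 7.28 ± 2.28 CPM in adult McSC (SD, n = 4) and 58.5 ± 13.5 CPM in melanoblasts (SD, n = 3), and its log2 fold change was -3.00 (edgeR, adjusted p = 5.33e-09). Nrp1, a co-receptor of KDR, had a log2 fold change of -1.72, Tgfbr1, a signalling receptor that works with endoglin, of -1.34 and Vegfb, a ligand of FLT1, of -1.43 (edgeR, adjusted p from 3.11e-06 to 0.000194). Vegfa, the main ligand of KDR, had 29.0 ± 4.45 CPM in adult McSC and 24.7 ± 4.01 CPM in melanoblasts and did not pass (edgeR, adjusted p = 0.435). Of the ligands and partners 0 of 19 were called by edgeR in aged McSC against adult McSC (7 at an unadjusted p under 0.05), and 4 were higher and 7 lower in aged McSC than in melanoblasts, where over all genes tested 20.4% were higher and 20.3% lower.

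Of 21 transcription factors of endothelium, 8 were called higher and 5 lower in adult McSC than in melanoblasts, against 15.1% and 18.3% of all genes tested, and 5 and 4 without adult replicate 3. Lmo2 (log2 fold change -3.20) and Elk3 (-1.81) were lower, and Klf4 (1.65) and Klf2 (1.73), which respond to flow in endothelium and are active in many other cells, were higher. Among vessel subtypes, 4 of 9 arterial genes were higher and 2 lower (1 and 1 without adult replicate 3), with Gja5 (1.59), Sox17 (1.51), Sema3g (-1.41) and Hey1 (-0.81) having the smallest p. Of 7 venous genes 2 were higher and 2 lower, with the same counts without adult replicate 3 and with Vcam1 at 1.07, Ackr1 at 2.95, Sele at -1.62 and Aplnr at -2.54. Of 6 lymphatic genes Reln (2.95) and Pdpn (1.46) were higher, and 2 were higher without adult replicate 3. Reln, a secreted glycoprotein, was also the lymphatic gene that was called in aged McSC against adult McSC (log2 fold change -1.66, edgeR adjusted p = 0.00869), and the factors, arterial and venous lists had 0 calls by edgeR there (7, 1 and 1 genes at an unadjusted p under 0.05).

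Blood cell markers summed to 45.5 to 65.9 CPM in adult McSC, against 33.6 to 44.3 CPM in melanoblasts, and 3 of 10 were called higher, Adgre1, Ptprc and Lyz2 (3 also without adult replicate 3). For this list and those that follow, the share of all genes tested was 15.1% higher and 18.3% lower in this comparison. Platelet and megakaryocyte markers, a list of cells that also carry PECAM1, summed to 8.62 to 14.1 CPM in adult McSC, against 7.30 to 11.8 CPM in melanoblasts. By edgeR 0 of 6 tested genes were called. At an unadjusted p under 0.05 there were 2 of the 6, and 14275 of 31961 over all genes tested. Pericyte and smooth muscle markers, of cells that wrap vessels, summed to 129.8 to 142.9 CPM in adult McSC, against 160.3 to 283.7 CPM in melanoblasts, with Cspg4 and Acta2 called lower (2 also without adult replicate 3). Fibroblast markers summed to 498.7 to 979.1 CPM in adult McSC, against 618.1 to 2259 CPM in melanoblasts, and 1 was called higher and 6 lower of 10 (1 and 4 without adult replicate 3). Schwann cell markers summed to 821.0 to 997.0 CPM in adult McSC, against 827.6 to 1337 CPM in melanoblasts, and 6 of 11 were called higher and 2 lower (6 and 1 without adult replicate 3). The part of these cells in the endothelial values was not tested.

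Across the 9 libraries the gene closest in pattern to the mean of the 9 was Ptprb, the gene of the endothelial phosphatase VE-PTP, with a root mean square difference of 0.211 in centred log2 CPM. Adamts4 (0.272), Col15a1 (0.287), Psph (0.288) and Vwf (0.296) followed, out of 10370 protein-coding candidates. Taken one at a time, the closest genes were Adgrf5 for Pecam1, Cd93 for Cdh5, Prom1 for Kdr, Nfkbia for Flt1, Esam for both Tie1 and Egfl7, Sparcl1 for Tek, Usp10 for Eng and St8sia4 for Emcn. Among the 9 genes, Tie1 with Egfl7 and Pecam1 with Tek were the closest pairs, each at 0.378, and Cdh5 with Tie1 the farthest at 1.26. These measures describe 9 libraries that share their scaling and, within a group, much of their expression.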

How the data were processed

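RNA was measured in 9 libraries grouped by sample title. The authors deposited 1 raw count per gene and library, under Ensembl identifiers and without normalization. The submitters' processing notes list STAR 2.5.2, SAMtools 1.9, Trimmomatic 0.36, DESeq2 1.22.2 and FastQC 0.11.8, and the genome build mm10. Which program counted reads, and with what strand setting, is not given in the sources used here. Per the labels' protocols, 20 ng of RNA was amplified to cDNA before library construction, so counts are not independent molecules.

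From the counts, edgeR 4.0.16 in R 4.3.3 was fitted to all 9 libraries (TMM factors, filterByExpr, robust quasi-likelihood F test, group means, no covariates), with Benjamini-Hochberg adjustment over 31961 genes and a threshold of 0.05. GENCODE vM21 named 49412 of 49671 identifiers; another 259, with 0.029% of counts, were kept in the fit. Log2 CPM used a prior count of 2. Within-group library pairs differed more than sampling allows (chi-square over its degrees of freedom, 17.5 to 75.1), so no pair looked like 1 library deposited more than once; since cDNA was amplified, this does not show separate pools, and replicates follow the titles. The code was tested on simulated counts.

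The 9 genes and all lists were chosen with earlier results of these data known. The text names the 9 genes, every defining marker, up to 4 genes per list with the smallest p among those called (the 2 most abundant where none was), the genes closest in pattern (mean of at least 5 CPM), and Kit and Ptprc. For lists of other cell types only counts, sums and a few of these genes are given; Vegfa and other genes outside this rule were chosen after their values were seen.

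Alternatives were RLE factors, limma 3.58.1 (voom, quality weights), DESeq2 1.42.0, no filter, a stricter filter (5 CPM in 2 libraries), factors from abundant genes (mean log2 CPM over 5), the receptor share as a covariate, leaving out each library, melanoblast replicate 3 and adult replicate 2 together, fitting only the 2 groups compared, and a replicate block. Counts for the other endothelial lists under these settings, and for the remaining lists without adult replicate 3, were added after seeing the data.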

Additional observations from a re-analysis of the deposited data

Results flagged for a closer look

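Among the 4 adult McSC libraries, replicate 3 lay far above the others for 4 of 39 endothelial genes examined, by the gap to the next library as a share of the group's range. Plvap was at 6.48 CPM in that library, with a gap of 0.882 of the range. S1pr1, a sphingosine phosphate receptor, was at 10.3 CPM (gap 0.886), Sox18 at 6.07 CPM (gap 0.843) and Robo4 at 18.1 CPM (gap 0.830). Chance alone flags about 1 in 20 such groups, and the genes share the library, so the 4 are not independent. None of the 9 genes of the report met this rule.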

How the results depend on the processing

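Without adult McSC replicate 3, 0 of the 9 genes were called in adult McSC against melanoblasts, where 8459 of 31624 genes tested were. Over all settings that leave out 1 library the count of the 9 ran from 0 to 5. For aged McSC against melanoblasts this range was 1 to 3. Genes called over the whole table, leaving out 1 library each, ran from 13 to 303 for aged against adult McSC and from 7410 to 16292 for aged McSC against melanoblasts. With the receptor share as a covariate, which differs between the groups, 0 of the 9 were called in either comparison with melanoblasts, and 630 and 184 genes were called for adult and aged McSC. The stricter filter left 6877 and 7611 calls in these comparisons. For aged against adult McSC the 97 genes called became 339 with DESeq2, 1416 with limma voom, 343 with no filter, 57 with factors from abundant genes, 278 without melanoblast replicate 3 and adult replicate 2, and 311 with only the 2 groups. Of the 9 genes, 1 was called there with DESeq2, 1 with limma voom and 4 with no filter. For aged McSC against melanoblasts 1 was called with the stricter filter and 1 with factors from abundant genes. The summed level was 117.7 CPM in aged McSC and 73.7 CPM in melanoblasts without TMM factors, which turns their order, and 278.0 CPM in adult and 159.7 CPM in aged McSC when library totals left out mitochondrial genes.

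Directions turned as follows, and the cause was not tested. For adult McSC against melanoblasts the log2 fold changes were -0.042 (Kdr), -1.06 (Tie1), 0.78 (Eng) and -0.024 (Egfl7) with the covariate, 0.069 for Eng with the stricter filter and 0.37 with factors from abundant genes, and -0.051 for Egfl7 without adult replicate 3 (to 0.76 when other libraries were left out). For aged against adult McSC, Flt1 was at 0.14 with limma voom, 0.17 with the stricter filter, 0.30 with factors from abundant genes, 0.023 with the covariate, and from -0.23 to 0.23 when 1 library was left out. Tie1 was at 0.14 with the stricter filter and 0.26 with factors from abundant genes, and from -0.53 to 0.49 when 1 library was left out; Egfl7 ran from -1.13 to 0.11 in that case. Eng in aged McSC against melanoblasts was at 0.025 with factors from abundant genes and 0.37 with the covariate. Replicate numbers did not pair the libraries: same-numbered libraries correlated at -0.0798 to 0.202 in their deviations from group means. With a replicate block, 4, 0 and 2 of the 9 genes were called in the 3 comparisons, 172 genes were called for aged against adult McSC, and Tie1 and Egfl7 were at 0.42 and 0.050 there. Aged McSC had 2 libraries and the lowest depth, and 28 counts behind Egfl7 in aged replicate 2 limit what can be seen there.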
